A study of Rattus norvegicus with 4 samples.

Results

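The genes described here encode the factors that start and extend protein chains on the ribosome. They were taken as every non-control probe whose gene name in the scanner files begins with Eif or Eef followed by a digit, once the suffixes for predicted or mapped genes were removed. The rule used names and no measured value, and it found 50 genes among the 35561 gene names of the array, with 85 of its 41012 non-control probes. RNA was taken from colon mucosa, the epithelial lining with its underlying tissue, of inbred F344 rats, and all rats drank 5% dextran sodium sulphate (DSS), which injures the colonic epithelium, for 5 days. One group had eaten resveratrol, a polyphenol of grapes, over the 20 days that preceded DSS, at a daily dose of 1 mg per kg, and the control group standard chow. Each of 4 arrays held RNA of 2 resveratrol rats in the red dye (Cy5) against a pool of control RNA in the green dye (Cy3), and ratios are red over green. The dyes were not swapped, so a difference between dyes at a probe cannot be told apart from one between groups. The pool counts as 1 control sample, so every test below leaves out the spread among control rats, and the age of the rats and the composition of the pool are not given in the sources used here.

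Initiation begins when eIF2, a complex of 3 subunits, brings the initiator tRNA to the small ribosomal subunit as a GTP-bound complex. The exchange factor eIF2B recharges eIF2 with GTP, and stress kinases that phosphorylate eIF2 block this recharging. The cap-binding protein eIF4E, the scaffold eIF4G and the helicase eIF4A form eIF4F, which loads messenger RNA, and eIF3 joins it to the ribosome. The 4E-BP proteins hold eIF4E back until the kinase mTOR phosphorylates them. In elongation eEF1A delivers aminoacyl-tRNA, the eEF1B complex recharges eEF1A, and eEF2 moves the ribosome along. Many of these messenger RNAs begin with a run of pyrimidines through which mTOR controls their own translation, and the gut epithelium renews itself at a high rate of protein synthesis.

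A probe here is a DNA of 60 bases, and its first 30 are printed for the members that mark the ends of what follows. They are the one member that fell, a member that was higher at nearly the same ratio on all arrays, and pairs of probes from 1 gene that gave different ratios. Positions are those of the scanner files in the rn3 build, and whether a probe lies in coding sequence or in a UTR was not determined here. A span of more than 60 bases belongs to a probe split by an intron.

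Eif4e, chr2:236090339-236090398 on the plus strand: ggtgaaggatccaggactatgacagaaagg
Eif3h, chr7:88151109-88174865 on the minus strand: cggcctggtagtattaaagataatcaaaca
Eif4a1, 5′-most probe, chr10:56501797-56502016 on the minus strand: ggaaggcgtcatcgagagtaactggaatga
Eif4a1, 3′-most probe, chr10:56497914-56497973 on the minus strand: tccccaggtgaggggagcaggggagagaaa
Eif4b, first probe, chr7:140909063-140910385 on the plus strand: aaggaccatcaaggaaagatgaaactaaag
Eif4b, second probe, chr7:140911322-140911381 on the plus strand: ctaccgcttctgaacagggaagttgtgtct

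Of the 85 probes, 74 stood well above background, in Cy5 or Cy3, on 3 or more arrays. The other 11 included the only probes of Eef1a2, Eif5a2, Eif2ak4, Ago3 and Ago4 and a further probe of Eef2k, Eif2b3, Ago1, Eif2s3, Eif4e and Eif5b. Flagged spots left a further 3 probes with under 2 values, and 71 probes of 43 genes were tested, 63 of them with values on all 4 arrays, 3 on 3 and 5 on 2. Since a probe bright in a single channel could pass, counts over the 71 describe the measured members and not all of them.

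Transcripts of initiation and elongation factors were more often higher than lower in the resveratrol samples, by modest amounts. At an adjusted p of at most 0.05 (limma, Benjamini-Hochberg over all 18869 tested probes), 25 of the 71 member probes were higher, which is 35.2%, beside 24.4% of all tested probes. One member probe, that of Eif4e, was lower, which is 1.41%, beside 22.7% of all tested probes. At an unadjusted p under 0.05 the counts were 28 higher and 3 lower. For counts at an unadjusted p, here and below, no share of all tested probes is given. The median log2 ratio of the members was 0.21 and that of all tested probes -0.02. The 25 higher probes lay between 0.29 and 0.85 on the log2 scale, or 1.22-fold to 1.80-fold, and each was above 0 on every array that gave a value. No member reached an absolute log2 ratio of 1. Of the 45 probes without a call, 30 had a mean above 0 and 15 below.

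Counted by gene through its brightest probe, 14 of 43 members were higher and 1 lower, against 22.3% and 24.4% of 16534 gene names on the array. At least 1 probe was higher in 20 of the 43 genes. That count has no share over all gene names beside it and cannot be set against the 22.3%. For 15 of the 43 genes 2 or more probes were tested, which gives more than 1 chance of a call. Shares given beside those of all probes or all gene names are descriptions, and whether the members differ from other genes was not tested. In a pooled tissue, a larger share of cells of a type and more RNA per cell cannot be told apart.

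**Figure D1:**
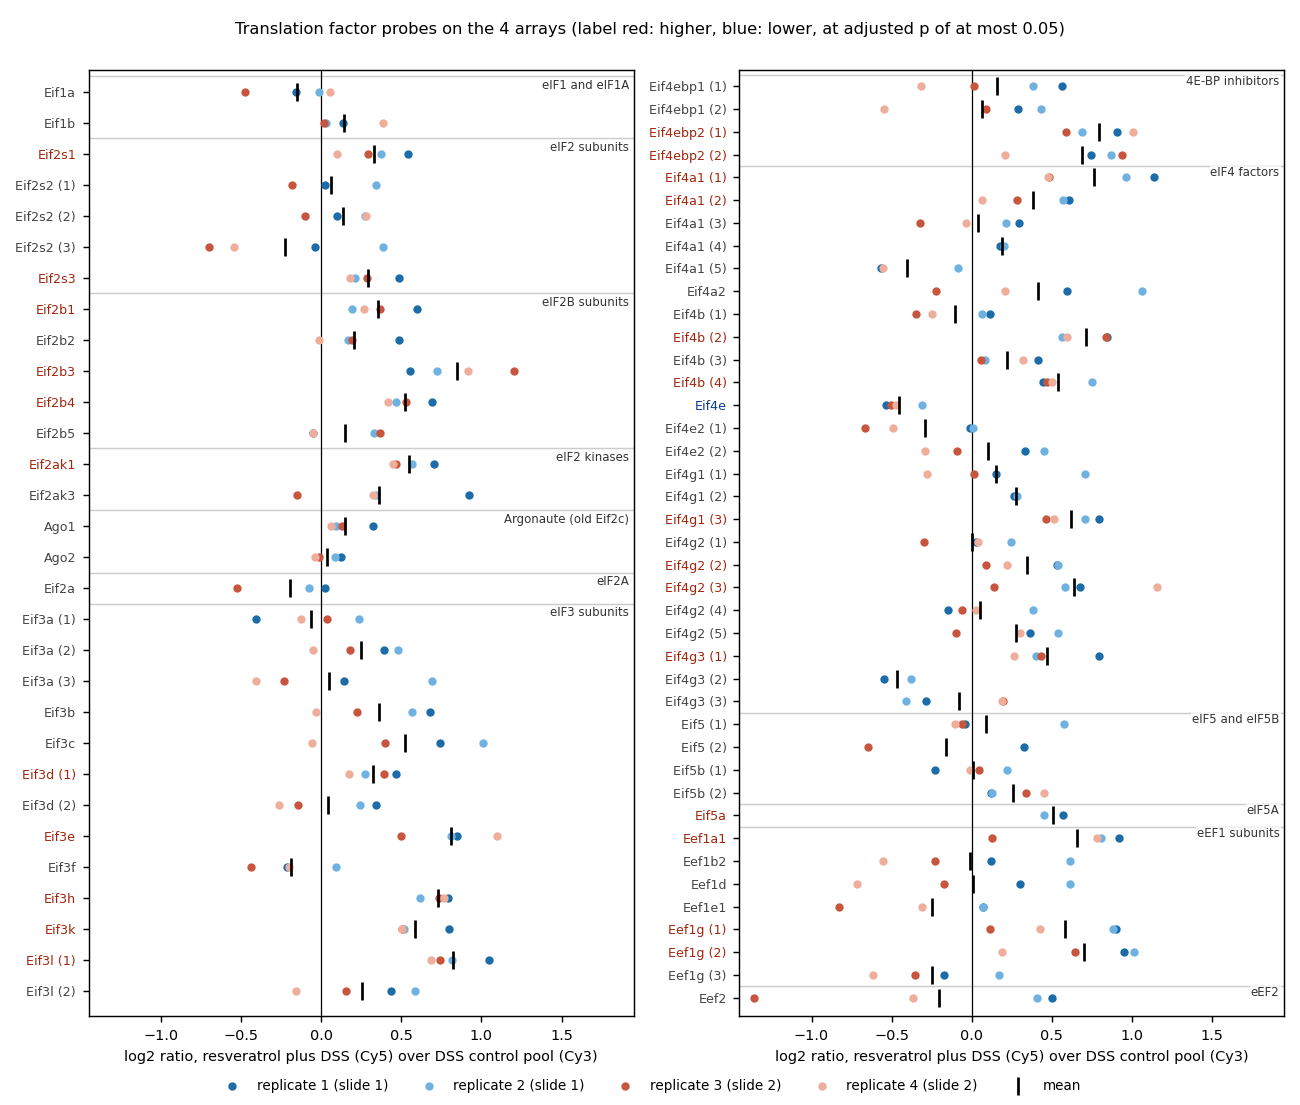
Log2 ratio (resveratrol plus DSS over the DSS control pool) of all 71 tested member probes on the 4 arrays, grouped by role, with a bar at the mean; numbers in brackets order a gene's probes from 5′ to 3′. Names in red mark the 25 probes called higher and the name in blue the 1 called lower (Eif4e), and most points of replicates 1 and 2 lie to the right of those of replicates 3 and 4.

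The members' median log2 ratio was higher on both arrays of slide 1 than on both arrays of slide 2. On replicate 1 the median log2 ratio of the members was 0.36 and 57 of 71 were above 0. Replicate 2, on the same slide, gave 0.39 with 64 of 70 above 0. On slide 2 the median was 0.09 on replicate 3, with 40 of 66 above 0, and 0.06 on replicate 4, with 36 of 64 above 0. Above 0 on replicates 1 to 4 were 80.3%, 91.4%, 60.6% and 56.2% of members and 53.1%, 52.8%, 46.2% and 50.8% of all tested probes. The medians of all tested probes were 0.04, 0.04, -0.06 and 0.01 on replicates 1 to 4. Thus the members' median stood above that of all probes on each of the 4 arrays, and farther above it on slide 1. Of the 63 members measured on all arrays, 35 were lower on both slide 2 arrays than on both slide 1 arrays, and 3 were higher. No such count is given for all tested probes, so it does not show a trait particular to the members. Slide and rats cannot be told apart, as each slide held other rats, and the difference between slides was not tested.

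**Figure D2:**
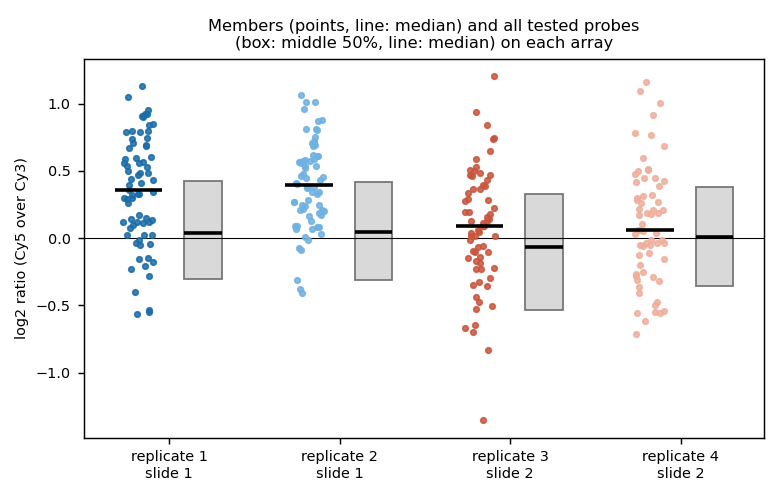
Log2 ratio of each member probe (points; black line, median) on the 4 arrays, beside all tested probes (grey box, middle 50%; black line, median). The members' medians are 0.36, 0.39, 0.09 and 0.06, and the boxes of all probes centre close to 0 on each array.

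Several features of the samples are given beside these ratios, and whether they moved together was not tested. Well above background were 49.2%, 49.0%, 48.7% and 44.1% of spots in Cy5 and 44.0%, 42.8%, 57.1% and 56.4% in Cy3 on replicates 1 to 4, and the ratios of any pair of arrays correlated at 0.70 to 0.89 over the tested probes. Outlier flags took 2, 5, 9 and 11 of the 94 member spots, beside 3.45%, 4.68%, 11% and 13.7% of all non-control spots. Markers of colonic epithelium, the labelled tissue, were measured for 12 of 18 listed genes, and 3 (Muc2, Cdx1 and Krt20) were higher and none lower (5 and 0 at an unadjusted p under 0.05), with array means of 0.03 to 0.96. Markers of neutrophils and macrophages were lower for 7 of 9 genes (array means -1.38 to -0.72), those of lymphocytes for 3 of 4 (-0.64 to -0.24), of fibroblasts for 4 of 5 (-1.61 to -1.18) and of smooth muscle for 1 of 4 (-3.70 to -0.29). Markers of erythrocytes were lower for 2 of 2 genes (-2.92 to -1.52), of pancreas for 3 of 3 (-3.53 to -2.67) and of enteric neurons and glia for 2 of 2. An array mean covers only the genes with a value on that array, so these ranges can mix different sets of genes. The part of this shift in cell markers in the members' ratios was not tested. The hexamers CACCTC and ACCTCA, carried by 3.81% of tested probes with a median log2 ratio of 0.20, were found in none of the tested members.

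Genes of the eIF2 cycle were among those higher. The 5 eIF2B subunit probes were each of another gene. In the limma fit 3 were higher and none lower, beside 24.4% and 22.7% of all tested probes. At an unadjusted p under 0.05 the counts were 3 and 0, and the median log2 ratio was 0.36. All 3 called genes had Cy3 well above background on only 2 arrays, and Eif2b3 and Eif2b4 passed the filter through Cy5, the channel in which they are high, so their calls and this count do not support a direction for eIF2B. None of the 3 has a value where both channels had to be bright on all arrays. Eif2b3, which encodes the gamma subunit, had the highest mean of all members. Its log2 ratios on replicates 1 to 4 were 0.56, 0.72, 1.21 and 0.92, all well above 0 and higher on slide 2. The mean was 0.85 ± 0.12 (moderated SE, n = 4 arrays), 1.80-fold, with an adjusted p of 0.00645 in limma. Cy5 was well above background on all 4 arrays for this probe and Cy3 on 2, so the control side of the ratio is faint. A second Eif2b3 probe was too dim to be told from background on all arrays. Eif2b4, the delta subunit gene, gave 0.69, 0.46, 0.53 and 0.42, a narrow range, with a mean of 0.52 ± 0.09 (n = 4, limma adjusted p = 0.00835). Eif2b1, the alpha subunit gene, gave 0.60, 0.19, 0.37 and 0.27 and a mean of 0.36 ± 0.10 (n = 4, limma adjusted p = 0.0304). The Eif2b1 call was lost with the slide as a random block (adjusted p = 0.054) and without replicate 1, 2 or 4 (0.127, 0.0731 and 0.0553). The remaining eIF2B genes had no call: Eif2b2 was at 0.21 and Eif2b5, the catalytic epsilon subunit gene, at 0.15.

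Of 5 probes for eIF2 itself, 2 were higher and none lower, beside 24.4% and 22.7% of all tested probes. The counts were 2 and 0 at an unadjusted p under 0.05, and the median was 0.14. Eif2s1 encodes the alpha subunit that the stress kinases phosphorylate. Its log2 ratios were 0.54, 0.37, 0.29 and 0.10 on replicates 1 to 4, above 0 on all but close to it on the last, with a mean of 0.33 ± 0.10 (n = 4, limma adjusted p = 0.0389). Eif2s3, the GTP-binding gamma subunit gene, gave 0.49, 0.21, 0.29 and 0.18 and a mean of 0.29 ± 0.09 (n = 4, limma adjusted p = 0.0415), the lowest of the higher probes. With the slide as a random block both missed the threshold (adjusted p = 0.0601 for Eif2s1 and 0.0702 for Eif2s3). Eif2s3 also missed it whichever array was left out (adjusted p from 0.0604 to 0.181), and Eif2s1 without replicate 1, 2 or 3 (0.159, 0.144 and 0.0528). Another Eif2s3 probe was left with 1 value by flagged spots. With those kept it gave 0.58, 0.04, -0.38 and 0.21 on replicates 1 to 4. Its mean of 0.11 had no call (limma adjusted p = 0.539). Eif2s2, the beta subunit gene, had 3 probes without a call, at 0.06, 0.14 and -0.22 from 5′ to 3′.

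Among the kinases of eIF2, Eif2ak1, which encodes the haem-regulated kinase HRI, was higher on every array. It gave 0.71, 0.57, 0.47 and 0.45, with a mean of 0.55 ± 0.09 (n = 4, limma adjusted p = 0.00753). Eif2ak3 encodes PERK, the kinase of endoplasmic reticulum stress. Its ratios were 0.92, 0.34, -0.15 and 0.32, so the arrays disagreed in sign, and its mean of 0.36 ± 0.17 had no call (n = 4, limma adjusted p = 0.122). Eif2ak4, the gene of the amino acid sensor GCN2, was not told from background on the 4 arrays. Eif2a, whose product is an alternative initiator tRNA carrier and no subunit of eIF2, was at -0.19 on 3 arrays without a call. Eif1a and Eif1b, whose products are small factors of start codon scanning, were at -0.15 and 0.14, without a call. The old name Eif2c brought the Argonaute genes, which act in RNA silencing and not in initiation, into the rule. Ago1 was at 0.15 and Ago2 at 0.04, neither with a call.

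The 13 tested probes of eIF3 covered 9 subunit genes and had a median log2 ratio of 0.33. In the limma fit 5 probes of 5 genes were higher and none lower, beside 24.4% and 22.7% of all tested probes. Counts at an unadjusted p under 0.05 were 7 and 0. Eif3h had the narrowest range of the probes called higher on 4 arrays: 0.79, 0.62, 0.74 and 0.77 on replicates 1 to 4. The mean was 0.73 ± 0.08, 1.66-fold (n = 4, limma adjusted p = 0.00451). Eif3e, whose product lies beside that of Eif3h in the complex, gave 0.85, 0.81, 0.50 and 1.10, with a mean of 0.81 ± 0.11 (n = 4, limma adjusted p = 0.00609). The first probe of Eif3l gave 1.05, 0.81, 0.74 and 0.68, high on every array, and a mean of 0.82 ± 0.09 (n = 4, limma adjusted p = 0.00475). The second Eif3l probe, nearer the 3′ end, was at 0.26 without a call. Eif3k, the gene of the smallest subunit, gave 0.80, 0.52, 0.51 and 0.50, and its mean was 0.58 ± 0.09 (n = 4, limma adjusted p = 0.00747). For Eif3h, Eif3e, Eif3k and this Eif3l probe the lowest array lay at 0.50, after rounding, or above.

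Eif3d, which encodes a cap-binding subunit, had a probe at 0.33 ± 0.09 (n = 4, limma adjusted p = 0.029), with 0.47, 0.27, 0.39 and 0.18 on the arrays, and a second at 0.05. The call was lost with the slide as a random block (adjusted p = 0.0513) and without replicate 1, 2 or 3 (0.127, 0.0999 and 0.0506). Eif3b, a core scaffold gene, ran from 0.68 on replicate 1 to -0.03 on replicate 4, and Eif3c, another core gene, from 1.01 on replicate 2 to -0.06 on replicate 4. Their means of 0.36 and 0.52 were as large as those of several higher genes, but the arrays spread more (limma adjusted p = 0.0708 and 0.0531). Eif3a, the largest core subunit gene, had 3 probes without a call. They stood at -0.06, 0.25 and 0.05 from 5′ to 3′, with array values from -0.41 to 0.69. Eif3f was at -0.19 without a call. Eif3g had flagged spots on all arrays. With those spots kept it gave -0.23, -0.08, -0.42 and -0.11, a mean of -0.21 (limma adjusted p = 0.112). The subunit genes thus ranged widely: Eif3e, Eif3h, Eif3k and the first of the Eif3l probes stood at 0.58 to 0.82, and Eif3a, Eif3f and Eif3g within 0.25 of 0, near which the second Eif3l probe also lay (0.26).

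Cap binding gave the one member that fell. Eif4e had log2 ratios of -0.53, -0.31, -0.50 and -0.47 on replicates 1 to 4, and it was the only tested probe of the 71 below 0 on all 4 arrays. Its mean of -0.455 ± 0.083 corresponds to 0.73 times the control level (n = 4, limma adjusted p = 0.0107). The call was lost without replicate 1 (adjusted p = 0.0569), with processed signals, under median centring (-0.15, adjusted p = 0.488), on slide 2 alone and with the wider standard error, while the sign held in all of these. A second Eif4e probe was not told from background on the 4 arrays. Eif4e2, whose product binds caps without entering eIF4F, had probes at -0.29 and 0.10, neither called, and both lower on slide 2 than on slide 1.

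The inhibitors of eIF4E differed from each other. Both probes of Eif4ebp2, which encodes the 4E-BP2 inhibitor, were higher. The first gave 0.91, 0.68, 0.59 and 1.00, a mean of 0.79 ± 0.10 (n = 4, limma adjusted p = 0.0052). The second gave 0.74, 0.87, 0.94 and 0.21 and a mean of 0.69 ± 0.14 (n = 4, limma adjusted p = 0.0135), with replicate 4 low. For this second probe Cy3 was well above background on 2 arrays and Cy5 on 4, so it passed the filter through Cy5, where it is high. Its call was lost without replicate 1 or 2 (adjusted p = 0.0525 and 0.0566). The probes of Eif4ebp1, which encodes 4E-BP1, were at 0.16 and 0.07 without a call. On both of them replicates 1 and 2 were above 0.25 and replicate 4 below -0.30. The ratio of the inhibitors to each other was not tested, and these are transcript levels that do not show phosphorylation.

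Of 24 tested probes of eIF4 factors, 8 were higher and 1 lower, beside 24.4% and 22.7% of all tested probes. The counts were 8 and 3 at an unadjusted p under 0.05, and the median was 0.20. Whether eIF4 factors differ from other probes was not tested. Eif4b, whose product stimulates the helicase, was higher through 2 of its 4 probes. The second gave 0.85, 0.56, 0.84 and 0.59, and the mean was 0.71 ± 0.09 (n = 4, limma adjusted p = 0.00541). The fourth gave 0.44, 0.75, 0.47 and 0.50, with a mean of 0.54 ± 0.09 (n = 4, limma adjusted p = 0.00875). The first and the third, at -0.10 and 0.22, had no call. The first is printed on 10 spots of every array and gave spot means of 0.11, 0.07, -0.35 and -0.25, with a spread between spots of 0.07 to 0.10 (SD). Thus the low value of that probe recurred across its spots on each array, and its sign followed the slide.

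Eif4a1, the helicase gene, gave 1.13, 0.96, 0.48 and 0.48 through its 5′-most probe, a mean of 0.76 ± 0.14 (n = 4, limma adjusted p = 0.0106). The next probe gave 0.61, 0.57, 0.28 and 0.06, a mean of 0.38 ± 0.12 (n = 4, limma adjusted p = 0.0414). That call was lost with the slide as a random block (adjusted p = 0.0571) and without replicate 1 or 2 (0.153 and 0.161). Toward the 3′ end the means were 0.04, 0.19 on 2 arrays and -0.40 on 3 arrays (limma adjusted p = 0.814, 0.287 and 0.0609). The 3′-most probe is the brightest, so the count by gene took Eif4a1 as uncalled. Its close relative Eif4a2 was at 0.41 ± 0.21, with 0.59, 1.06, -0.22 and 0.21 on the arrays and no call.

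Among the eIF4G scaffolds, the 3′-most probe of Eif4g1 gave 0.80, 0.71, 0.46 and 0.51 and a mean of 0.62 ± 0.09 (n = 4, limma adjusted p = 0.00701). Its other probes, at 0.15 and 0.27, had no call. Eif4g2, whose product lacks the site for eIF4E and serves cap-independent initiation, had 5 probes. From 5′ to 3′ the 4 on chromosome 1 were at 0.00, 0.34, 0.64 and 0.05, and the second and the third were higher (limma adjusted p = 0.0444 and 0.0258). The third gave 0.67, 0.58, 0.14 and 1.16 and the second 0.53, 0.54, 0.09 and 0.22, so replicate 3 was the lowest for both. The call of the second was lost with the slide as a random block (adjusted p = 0.0613), and both calls were lost without replicate 1, 2 or 4 (adjusted p from 0.0536 to 0.181). The fifth probe, which the files place on chromosome 9 under the same name, was at 0.27 without a call. Eif4g3 was higher through its 5′ probe alone, with 0.79, 0.40, 0.43 and 0.26 and a mean of 0.47 ± 0.11 (n = 4, limma adjusted p = 0.0196), lost without replicate 1 or 2 (0.0733 and 0.0658). Its others gave -0.46 on 2 arrays (limma adjusted p = 0.0543) and -0.08.

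Late initiation factors had few tested probes, too few to compare with the 24.4% of all tested probes that were higher. No call was made for the 2 probes of Eif5, the gene of the GTPase activator of eIF2 (0.09 and -0.16). The 2 of Eif5b, whose product joins the large subunit, had no call either (0.01 and 0.26). At an unadjusted p under 0.05 there was 1 higher and 0 lower among these 4 probes. Eif5a encodes the hypusine-bearing factor that helps ribosomes past slow peptide bonds. It was higher at 0.51 ± 0.13, but only the arrays of slide 1 gave values, 0.57 and 0.45 (n = 2, limma adjusted p = 0.0421). With the slide as a random block (adjusted p = 0.0635), or when both channels had to be bright on all arrays (0.0588), this call was lost. The same held in the authors' table (0.168) and with an intensity trend in the variance prior (0.109). Processed signals (0.074), a background offset of 0 (0.0676) and the wider standard error (0.131) also removed the call.

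Elongation factors were divided. Of 7 tested eEF1 probes, 3 were higher and none lower in the limma fit, beside 24.4% and 22.7% of all tested probes. At an unadjusted p under 0.05 the counts were 3 and 0, and the median of the 7 was 0.01. Eef1a1, which encodes the carrier of aminoacyl-tRNA, gave 0.92, 0.80, 0.13 and 0.78, high on all arrays but replicate 3. The mean was 0.66 ± 0.15, 1.58-fold (n = 4, limma adjusted p = 0.0177), and the call was lost without replicate 1, 2 or 4 (adjusted p = 0.0658, 0.0665 and 0.053). Eef1g, the gene of the structural subunit of eEF1B, was higher through its first probe, at 0.90, 0.88, 0.12 and 0.43, and its second, at 0.95, 1.01, 0.65 and 0.19. The means were 0.58 ± 0.15 and 0.70 ± 0.15 (n = 4 each, limma adjusted p = 0.0272 and 0.0165). Both calls were lost without replicate 1 or 2 (adjusted p from 0.0623 to 0.0969), and that of the first without replicate 4 (0.0542). The third, at the 3′ end, gave -0.18, 0.17, -0.36 and -0.62, and its mean of -0.25 ± 0.14 had no call (n = 4, limma adjusted p = 0.176). On every array it lay below the other Eef1g probes.

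The exchange factor genes Eef1b2 and Eef1d were at -0.01 and 0.01, means of values that parted by slide. Eef1b2 gave 0.12, 0.61, -0.23 and -0.55, and Eef1d 0.30, 0.61, -0.17 and -0.71. Eef1e1, whose product is a partner of the tRNA synthetase complex, was at -0.25 without a call. Eef2, the translocase gene, parted most widely of all members: 0.50 and 0.41 on slide 1 against -1.36 and -0.37 on slide 2, a mean of -0.20 ± 0.31 (n = 4, limma adjusted p = 0.596). These values show no direction for Eef2 over the 4 arrays. The kinase that inhibits it, encoded by Eef2k, was left with 1 value by flagged spots, and with those kept it was at -0.23 (limma adjusted p = 0.0651), below 0 on every array. The tissue-restricted paralog Eef1a2 was not well above background on 3 arrays in either channel.

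Where a gene had more than 1 tested probe, the probes often differed in their calls. Of 15 such genes, 8 had called and uncalled probes together, 1 (Eif4ebp2, with a second probe faint in Cy3) had all probes higher, 6 had no call, and in none were probes called in opposite directions. In 10 of the 15 the highest probe lay above the lowest on every array that gave both. Highest and lowest were picked by their means over these same arrays, so that count was favoured in advance and supports no difference. The probe nearest the 3′ end lay below the one nearest the 5′ end in 9 of 15 genes, among them Eif4a1, Eef1g, Eif3l and Eif4g3, and above it in the other 6 (Eif3a, Eif4b, Eif4e2, Eif4g1, Eif4g2 and Eif5b). The differences between probes of a gene were not tested.

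**Figure D3:**
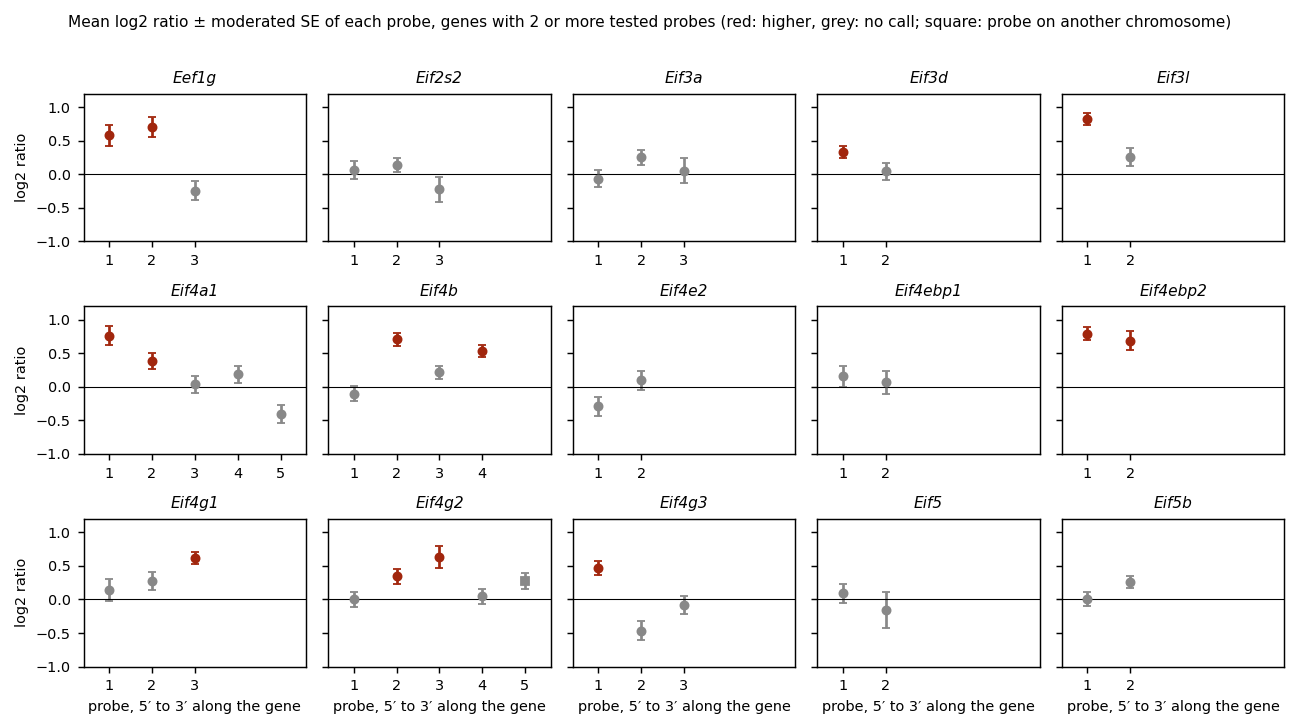
Mean log2 ratio ± moderated SE of each tested probe in the 15 genes with 2 or more, ordered from 5′ to 3′; red marks probes called higher, grey no call, and the square a probe on another chromosome. Eif4a1 runs from 0.76 at the 5′ end to -0.40 at the 3′ end, while both probes of Eif4ebp2 are higher.

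The excess of higher over lower members held in direction under each of the 18 other settings, and its size did not. The members' median lay above that of all tested probes in all 19 settings, by 0.08 on slide 2 alone to 0.43 with flagged spots kept. Called higher were 43 of 70 members on slide 1 alone, beside 33.3% of all probes, and 4 of 63 on slide 2 alone, beside 5.16%. Without replicate 1, 12 of 66 members were higher, beside 12% of all probes, and without replicate 2, 12 of 67, beside 12.1%. With the standard error widened by the square root of 2, as 1 allowance for a spread of the control pool, 11 of 71 were higher, beside 7.72%. That factor takes the control to be as precise as the mean of the 4 arrays. The composition of the pool is not given, so a wider error may apply. Median centring in place of loess moved the median of all probes up by 0.23 and called 47 members higher, beside 36.3% of all probes. With all tested probes ranked by intensity in 4 classes of equal size, the brightest class held 32 of the 71 members. Within it 10 members (31.2%) were higher, beside 21.8% of all probes. In the other classes, from dim to bright, 5 of 9, 0 of 5 and 10 of 25 members were higher, beside 25.3%, 26.2% and 24.2% of all probes. A dim probe could pass the filter through Cy5 alone, where it is high, so the count of the dimmest class supports no direction. Under median centring 26 of the 32 members of the brightest class were higher, beside 49.6% of all probes of that class.

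**Figure D4:**
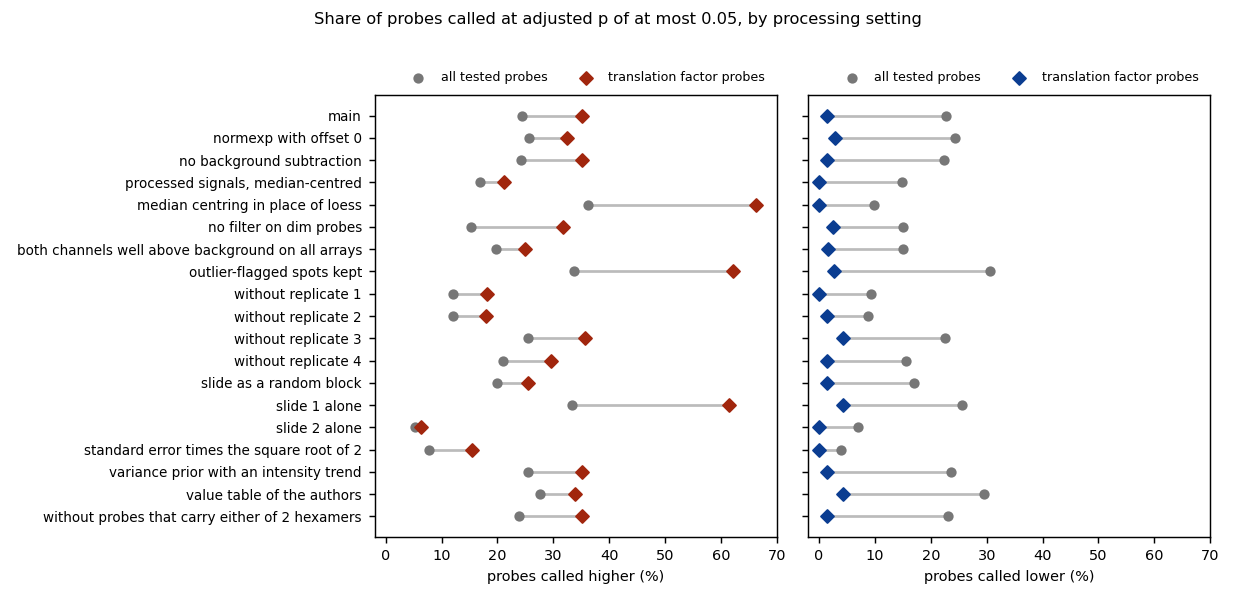
Share of probes called higher (left) and lower (right) at an adjusted p of at most 0.05 among the members (diamonds) and all tested probes (circles) under each processing setting. The members' share of higher calls exceeds that of all probes in every setting, by little on slide 2 alone (6.35% and 5.16%), and their share of lower calls is smaller in every setting.

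In all, 4 probes stayed called in every alternative that gave them a value: those of Eif3h, Eif2b3, the first of Eif3l and the second of Eif4b. Eif2b3 has no value in the setting that requires both channels to be bright on all arrays, which would bear on its faint Cy3, and neither have Eif2b4, Eif2b1 and the second Eif4ebp2 probe. A further 7 lost the call only on slide 2 alone, namely Eif3e, Eif3k, Eif2b4, Eif2ak1, the 3′ probe of Eif4g1, the fourth of Eif4b and the first of Eif4ebp2. The remaining 15 called probes lost it in at least 2 settings, and 13 of these when some replicate was left out. No called member changed sign in any setting.

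Other genes of the pathway were counted by brightest probe, beside 22.3% higher and 24.4% lower over all gene names. Of 14 aminoacyl-tRNA synthetase genes 7 were higher and none lower (8 and 0 at an unadjusted p under 0.05), with a median of 0.32, led by Tars, for threonine, at 0.88 ± 0.09, and Lars, for leucine, at 0.66 ± 0.10 (n = 4 each, limma adjusted p = 0.00416 and 0.00747). Of 75 cytosolic ribosomal protein genes 18 were higher, a share near that of all genes, and 2 lower, with a median of 0.25 and array means from -0.17 to 0.71. Mitochondrial translation factors had 3 of 4 higher and none lower (3 and 0 unadjusted), with Tufm, the mitochondrial counterpart of eEF1A, at 0.68 and Mtif2, that of eIF5B, at 0.64. Of 10 genes of mTOR signalling 4 were higher and none lower (4 and 0 unadjusted), with Pdpk1, an upstream kinase, at 0.50 and Akt2 at 0.41, while Tsc1, Tsc2 and Akt1 had no call. The S6 kinase gene Rps6kb1 was higher at 0.36 and the mTOR activator gene Rheb at 0.31.

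Among 7 other regulators of initiation 2 were higher and none lower (4 and 0 unadjusted), Larp1, which binds pyrimidine-run messages, at 0.66 and Ddx3x, a helicase, at 0.35. The array names eIF6, an anti-association factor, by its old symbol Itgb4bp, which was at 0.55 without a call (limma adjusted p = 0.055). Pdcd4, an inhibitor of eIF4A, was at 0.46 without a call (limma adjusted p = 0.0548). Of 3 poly(A)-binding genes Pabpc1 was higher, at 0.56, and none of 3 termination and recycling genes was called (0 and 0 unadjusted). Targets of the integrated stress response, which follows phosphorylation of eIF2, went both ways. Of 7 genes Asns, asparagine synthetase, was higher at 0.44 ± 0.11 (limma adjusted p = 0.0243) and the transcription factor gene Atf3 lower at -0.69 ± 0.15 (limma adjusted p = 0.0162). Atf4 and Ddit3, central to that response, were at 0.17 and 0.09 without a call.

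The start sites of the members were read from the RefSeq promoters of assembly GRCr8, which held 44 of the 50 genes. Those without an entry were Eif3e, Eif3h and Eif4b, each with a probe called higher, and Ago2, Eef1d and Eif4ebp1, without a call. Searched on the sense strand was a C followed by at least 4 pyrimidines, starting within 5 bases of the annotated start. Such a run was present in 12 of the 44 (27.3%) and in 17.0% of all 33469 promoters. The windows below run from 10 bases before to 20 from the start, and capitals mark the run. They are shown for genes of the elongation and initiation complexes that were higher (Eef1a1, Eif2s3) and that had no call (Eef1b2, Eif3f), all with the run.

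Eef1a1, chr8:88225050-88225079 on the minus strand: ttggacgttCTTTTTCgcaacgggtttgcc
Eif2s3, chrX:62933680-62933709 on the minus strand: cagccgagcattttCCTTTTCTCTCTgagc
Eef1b2, chr9:72074081-72074110 on the plus strand: ggccggtcccggCCCTTTTTCTCCCTCagc
Eif3f, chr1:172369052-172369081 on the plus strand: cccttccgttctagCCTCTCTCTTTCTCgg

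Among members with a promoter entry, genes with the run were not more often called higher than those without it, by count alone. Eif3e, Eif3h and Eif4b, all with a probe called higher, are missing from these counts. Of 10 tested genes with it, 3 had a probe called higher (Eef1a1, Eif2s3 and Eif4g1), and of 27 without it 14 had. The medians of their brightest probes were 0.21 and 0.25. The sequence CACGTG, a palindrome that MYC-family factors bind, was found within the 300 bases of 10 members (22.7%) and 6.42% of all promoters. A probe was higher in 2 of the 8 tested genes that hold it (Eif4g1 and Eif5a) and in 15 of the 29 that do not. These matches are letters in a window around annotated starts and show neither binding nor the starts in use in this mucosa.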

How the data were processed

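The data are 4 Agilent arrays of rat colon mucosa with 2 channels each, with Cy5 as the resveratrol plus DSS sample and Cy3 as the control pool throughout, per the labels, and no dye swap. Per the file headers, the deposited spot intensity values and their log10 ratios come from version 9.5.3.1 of Agilent's software, with probe positions in rn3. The log10 ratios were used here only to check the authors' values. The value table of the authors holds log2 ratios of 24197 probes, which followed the scanner ratios with r of 0.98 to 0.99 and slopes of 0.97 to 1.00. Its column medians were -0.01, -0.01, 0.09 and -0.02, and no source used here states its centring. Agilent Feature Extraction and limma are the tools in the submitters' processing notes.

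With limma 3.58.1 (R 4.3.3), background was corrected by normexp (offset 50) and each array normalized by loess. Spots with an outlier flag and the 1639 control spots among 45018 got weight 0 before a probe's spots were averaged. Probes well above background in Cy5 or Cy3 on 3 or more arrays numbered 20409, of which 1540 had under 2 values. Mean log2 ratios of the other 18869 were tested against 0 with lmFit and eBayes, two-sided, adjusted by Benjamini-Hochberg at 0.05. Errors are moderated standard errors. They draw on all probes, can be smaller than a probe's own spread and lean most on other probes where only 2 arrays gave values. p-values measure the spread between 4 arrays of 2 rats each. Precision is limited by how few arrays there are. The fit was tested on simulated data.

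Symbols came from the RefSeq table of GRCr8: 44 member probes matched by accession, 27 by symbol and 14 by synonym. Per-array values are given for core members, for up to 3 called probes at either end of each role group and for genes with several probes, and of other lists up to 2 called genes at either end, with a few more chosen after their values were seen. Members, lists and the 2 hexamers were chosen with earlier results of these data known. The alternatives changed the background correction, normalization, filter and prior, left out each array or slide, took the slide as a block, widened the standard error or used the authors' table. Counts by intensity class and members with flagged spots kept were added after seeing the data.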

Additional observations from a re-analysis of the deposited data

Results flagged for a closer look

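Of 63 member probes with values on all 4 arrays, 2 had an array far from the other 3 by Dixon's criterion, where chance flags about 1 in 20 groups. For Eif3k, an eIF3 subunit gene, replicate 1 stood at a log2 ratio of 0.80 while the others lay between 0.50 and 0.52, and the gap was 0.948 of the whole range. For the first probe of Eif5, replicate 2 stood at 0.575, with the others between -0.11 and -0.04 and a gap of 0.909 of the range. Eif3k was above 0 on every array and kept its call without replicate 1, while Eif5 had no call. The cause was not tested for either probe.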

How the results depend on the processing

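The count of higher members was 25 of 71 in the main analysis, with the share of all tested probes called higher in brackets (24.4%). It was 15 of 71 with processed signals (16.8%) and 47 of 71 with median centring (36.3%). With both channels bright on all arrays it was 16 of 64 (19.7%), and with flagged spots kept 46 of 74 (33.7%). On slide 1 alone it was 43 of 70 (33.3%) and on slide 2 alone 4 of 63 (5.16%). The wider standard error gave 11 of 71 (7.72%), and leaving out each replicate gave 12 to 25 (12% to 25.5%). The count stayed within 1.5 times of 25 in the other settings. With the slide as a random block it was 18 of 71 (19.9%). The count of lower members (1) was 0 with processed signals, median centring, slide 2 alone and the wider standard error, 2 with an offset of 0, without a filter and with flagged spots kept, and 3 on slide 1 alone and in the authors' table; leaving out a replicate gave 0 to 3. The members' median (0.21) was 0.56 with median centring, 0.46 with flagged spots kept and 0.39 on slide 1 alone, and 0.16 to 0.27 with a replicate left out. By gene, the mean of a gene's probes gave 15 higher and 1 lower. Members without a call that came out higher elsewhere after a mean below 0 were the first Eif4b probe (0.41 with median centring, 0.32 with flagged spots kept), Eef1b2 (0.56, 0.56 and, on slide 1 alone, 0.37) and Eef2 (0.43, 0.72 and 0.45). The cause was not tested. No paired analysis was possible because the labels give 1 group of samples against a pool. Signal limits Eif2b3, Eif2b4, Eif2b1 and the second Eif4ebp2 probe, whose Cy3 was well above background on 2 arrays.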
